A study of Homo sapiens with 40 samples.

Results

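SNARE proteins carry out the last step of membrane traffic, the fusion of a vesicle with its target membrane. The 36 genes described here were listed as human SNAREs of the main transport routes, from the endoplasmic reticulum (ER) to the plasma membrane. They were taken by gene symbol out of the 55765 symbols counted in each library. Whether each of them carries a SNARE motif was not checked. Their mRNAs were followed in HEK293 cells, a human embryonic kidney line, through 3 experiments on proteins that act on translation and on mRNA decay. All 36 symbols were found in every library.

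A fusion complex is a bundle of helices contributed by 4 kinds of SNARE motif, named Qa, Qb, Qc and R after the residue at the centre of the bundle. Syntaxins of the Qa kind organise the target membrane, Qb and Qc proteins complete the target side, the SNAP proteins carry a Qb and a Qc helix in one chain, and most R-SNAREs sit on the vesicle. The ATPase NSF takes spent complexes apart, Sec1/Munc18 proteins guide their assembly, and tethers such as the exocyst, COG, GARP and HOPS hold the membranes together beforehand.

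The first experiment was an RNA immunoprecipitation (IP) from untreated cells, with antibodies to the endogenous RNA helicases eIF4A1, eIF4A2 and DDX6. It gave 3 libraries of each IP and 3 of total RNA. No control antibody library was among the samples used here, so an IP level was read against total RNA and against the other IPs. In the second experiment cells received a control siRNA or an siRNA to CNOT1, the scaffold of the Ccr4-Not deadenylase complex, and lysates were run on sucrose gradients. Each siRNA had 4 libraries of unfractionated RNA (input), 4 of the subpolysomal pool (fractions 1 to 5) and 4 of the polysomal pool (fractions 6 to 11). In the third experiment total RNA was sequenced from cells given a control siRNA (2 libraries) or siRNAs to TNRC6A and TNRC6B (2 libraries), the scaffold proteins that link Argonaute to Ccr4-Not. The labels do not say whether replicates came from separate cultures, so p-values measure the spread between these samples. Each library pools many cells, so fewer cells with an mRNA and less of that mRNA per cell cannot be told apart.

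The 40 libraries held between 15.35 and 46.02 M counted reads, and no 2 replicates were duplicates (lowest chi-square per degree of freedom 5.49). CDH2 and VIM were expressed, PAX2 was low, and ALB, PTPRC, HBA1 and MYH6 were at or near 0. Levels are given as CPM, the counts of a gene per M reads of the scaled library total. CNOT1 mRNA was at 672 ± 35.7 CPM (SD, n = 4) in control input and 39.6 ± 1.99 CPM after CNOT1 siRNA. In the polysomal pool 2 libraries went against their labels. The library labelled control replicate 3 held 28.3 CPM of CNOT1, against 470 to 501 CPM in the other controls. The library labelled CNOT1 siRNA replicate 3 held 631 CPM, against 24 to 31.6 CPM in the others of that group. Polysomal results were therefore also computed without both of these libraries, and the main ones are given both ways. TNRC6A was 183 CPM on average in its control and 52.6 CPM after the siRNAs, and TNRC6B was 70.3 and 22 CPM.

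Values of single libraries are given in replicate order throughout. To compare levels between genes, reads were divided by exon length and depth (RPKM). In control input the spread across the family was wide. The R-SNAREs held the highest levels, with VAMP3 (cellubrevin, of recycling endosomes) at 44.8 ± 0.904 RPKM (SD, n = 4 here and for each level in this paragraph) and VAMP7 (late endosomes and lysosomes) at 36.2 ± 1.75 RPKM. In RPKM these levels stood above YKT6, a lipid-anchored R-SNARE of the Golgi and autophagosome, at 21.0 ± 1.11 RPKM, and the libraries of these 3 did not overlap. This order rests on the exon lengths used, 7683 nt for YKT6 against 2733 nt for VAMP3 and 2615 nt for VAMP7. In CPM, with no division by length, YKT6 was the highest of the 3 (161 against 122 and 94.6 CPM). SEC22B, the R-SNARE of traffic between ER and Golgi, was at 15.2 RPKM, and its relatives SEC22A and SEC22C were at 3.64 and 8.69 RPKM. The synaptobrevins VAMP1 and VAMP2 were at 3.79 and 6.59 RPKM, VAMP4 of the trans-Golgi network at 2.97 RPKM, and VAMP8 of late endosomes at 4.82 RPKM. VAMP5, known from muscle, was at 0.0372 RPKM and had 0 to 7 reads in any library.

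The orders in this paragraph are those in RPKM and rest on the exon lengths used as well. Among the Qa syntaxins STX16, of the trans-Golgi network, was highest at 16 RPKM, and STX12, of recycling endosomes, stood at 13.2 RPKM. STX2, a plasma membrane syntaxin, was at 10.4 ± 0.563 RPKM, next to STX5, the Golgi syntaxin, at 10.3 RPKM. The other plasma membrane syntaxins were at 8.82 RPKM (STX4), 5.1 RPKM (STX3) and 1.7 RPKM (STX1A, the form used at synapses). STX7 of late endosomes, STX18 of the ER and STX17 of autophagosomes were at 6.24, 6.12 and 3.4 RPKM. The Qb SNAREs ran from VTI1B at 15.5 RPKM and GOSR1 at 8.65 RPKM, through BNIP1 at 6.73 RPKM and VTI1A at 4.54 RPKM, to GOSR2 at 1.5 RPKM. The Qc SNAREs lay between STX10 at 13.4 RPKM and BET1 at 4.16 RPKM, with BET1L at 7.13, STX6 at 6.88, USE1 at 6.04 and STX8 at 5.09 RPKM in between. Of the SNAP proteins, SNAP23 was at 11.3 RPKM, SNAP29 at 9.02 RPKM and SNAP47 at 4.94 RPKM. In CPM several of these orders turned. STX7 stood above STX16 (102 against 81 CPM) and GOSR2 above BNIP1 (21.6 against 16.4 CPM). STX6 stood above STX10 (44.5 against 24 CPM) and SNAP47 above SNAP29 (50.4 against 44.4 CPM). Neuronal SNAP25 was at 0.00604 RPKM, with 1 to 13 reads in any library. VAMP5 passed the filter on low counts in none of the experiments and SNAP25 in the IP experiment alone, which left 35 members tested there and 34 in the other 2 experiments.

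The study asked about purine-rich stretches in the 5′UTR, so the 30 bases before the start codon were read for each member from the GRCh37 (hg19) sequence and GENCODE transcripts. A set of 8 purine tetramers (AAGA or AGAA or GAAA or GAGA or AGAG or GGAA or AAAA or GAAG) was searched on the transcript strand, with overlapping matches all shown in capitals and only matches that do not overlap counted for the density. At least 1 was present in 15 of the 32 tested members with a window that long (46.9%), against 5225 of 11609 protein-coding genes tested (45.0%). The members' 5′UTRs were 115 nt long at the median against 147 nt over all genes tested, with 68.1% GC against 67.2%. Their coding sequences were short (744 against 1440 nt) and their 3′UTRs long (2117 against 1355 nt). Of the windows with a match, 5 are shown, from members that passed the test in a comparison below, with the tetramers in capitals, written 5′ to 3′ on the transcript strand.
VAMP4: GAAGcAAAAGAtactttgcaagtAAAAAAt
VAMP1: gaacagaccctcactctctctgtcAGAAAA
STX16: ccctGAGAGgggggtcgcaaagggtGAGAc
STX12: tgtAGAGcgagcaggtctcagctcctcgtc
VAMP8: cttactgaccggcctgggctgctctGAGAc
These lie at chr1:171707555-171707584 on the minus strand (VAMP4), chr12:6579698-6579727 on the minus strand (VAMP1), chr20:57227033-57227062 on the plus strand (STX16), chr1:28099789-28099818 on the plus strand (STX12) and chr2:85804740-85804769 on the plus strand (VAMP8), each within 1 exon of the 5′UTR. The windows of STX2, STX3, BET1L, VAMP2 and YKT6 held none of the 8 tetramers. A match is a description of these letters only.

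STX2 and BET1L had the highest IP to total RNA ratios of the members with eIF4A1, with eIF4A2 and with DDX6. The lowest ratio was that of VAMP1 with eIF4A1 and DDX6, and that of STX8 with eIF4A2. The 3 comparisons share the same total RNA libraries and are given side by side for that reason. A member was called where edgeR's quasi-likelihood test over all genes gave an adjusted p (FDR) below 0.05. The share of all genes without overlap between groups was counted in no comparison. A lack of overlap, here and below, therefore describes the mRNAs named only. In the eIF4A1 IP 14 of 35 members were higher than in total RNA and 7 lower, where 26.1% of the 17474 genes tested rose and 26.5% fell (52.6% together). With eIF4A2 the counts were 11 and 10 members (24.5% and 25.8% of all genes, 50.3% together). With DDX6 they were 14 and 6 (22.7% and 23.3% of all genes, 46% together). The count of 6 lower with DDX6 was 2 or 3 in 5 of the 6 fits that left out 1 library, and 6 without total RNA replicate 3. It was 2 without the filter on low counts. The median log2 ratio over the members was 0.26, 0.12 and 0.31 in the 3 IPs, and over all genes 0.04, 0.01 and 0.01.

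STX2, which encodes a syntaxin of the plasma membrane and lies at chr12:131274145-131323799 on the minus strand (GRCh37), was measured at 51.8, 54.7 and 61.1 CPM in total RNA. It was at 147, 186 and 179 CPM in the eIF4A1 IP, at 135, 191 and 165 CPM in the eIF4A2 IP, and at 136, 171 and 167 CPM in the DDX6 IP. All 9 IP libraries lay above the 3 total RNA libraries. The log2 ratio was 1.61 ± 0.16 (SE) with an FDR of 5.85e-06 for eIF4A1, 1.55 ± 0.16 with an FDR of 6.62e-06 for eIF4A2, and 1.5 ± 0.16 with an FDR of 2.16e-05 for DDX6.

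**Figure D1:**
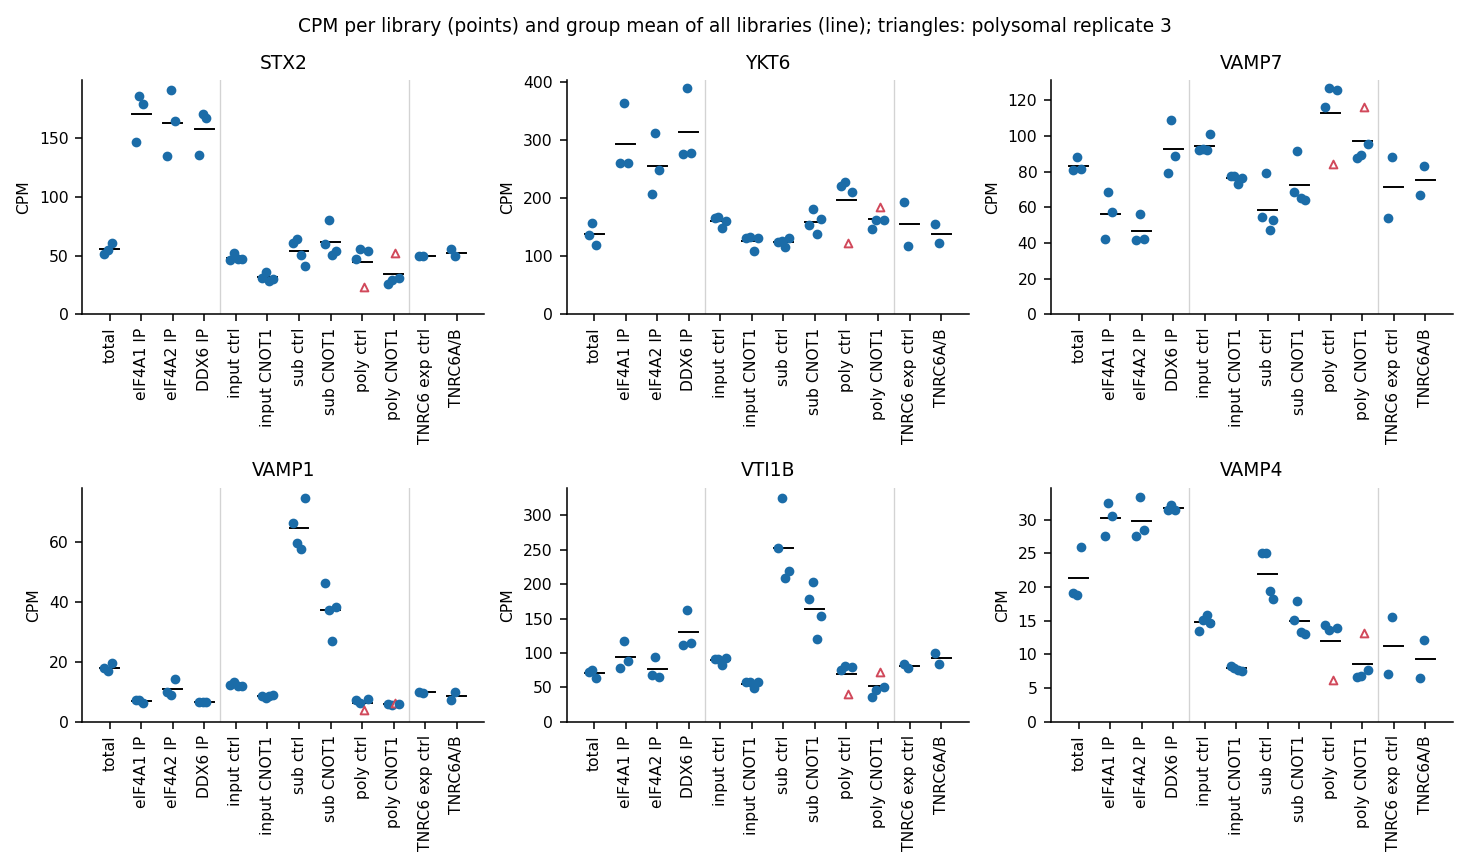
The level in CPM of STX2, YKT6, VAMP7, VAMP1, VTI1B and VAMP4 (y axes) in each of the 40 libraries, by group (x axes). Points are libraries, lines are group means over all libraries, and open triangles mark the polysomal replicate 3 libraries whose CNOT1 level went against the label. STX2 stands at 135 to 191 CPM in the IPs against 51.8 to 61.1 CPM in total RNA, and VAMP1 at 57.7 to 74.7 CPM in control subpolysomal RNA against 3.99 to 7.65 CPM in control polysomal RNA.

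BET1L (GS15), a Qc-SNARE of the Golgi, rose in a like manner, from 24.8, 27.1 and 21.5 CPM in total RNA to 67.2, 86.1 and 61.5 CPM with eIF4A1, 58.2, 81.5 and 80.6 CPM with eIF4A2 and 55.9, 81.0 and 64.3 CPM with DDX6 (log2 1.55 ± 0.19, 1.58 ± 0.19 and 1.45 ± 0.19). The gene shares exon sequence on the same strand with the annotated gene AC069287.1, so part of its reads may have been split or dropped. STX3, the apical plasma membrane syntaxin, went from 27.8, 30.9 and 33.6 CPM to between 59.3 and 76.7 CPM in the 9 IP libraries (log2 1.17 ± 0.14, 1.19 ± 0.14 and 1.11 ± 0.14). VAMP2, a synaptobrevin that also serves secretion outside neurons, went from 23.5, 27.9 and 25.8 CPM to between 44.6 and 63.2 CPM (log2 1.01 ± 0.14, 1.09 ± 0.14 and 1.06 ± 0.14). For each of these 3 mRNAs every IP library lay above every total RNA library.

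YKT6 was at 136, 158 and 119 CPM in total RNA, at 260, 363 and 260 CPM with eIF4A1, at 208, 312 and 249 CPM with eIF4A2, and at 276, 389 and 278 CPM with DDX6. Total RNA lay below every IP library, while the IPs overlapped each other, and the log2 ratio to total RNA was 1.1 ± 0.2 (FDR 0.000583), 0.9 ± 0.2 (FDR 0.00237) and 1.19 ± 0.2 (FDR 0.000467). STX2, STX3 and VAMP2 act at the plasma membrane, and among the 10 tested members of that route 7 were higher with eIF4A1 and 1 lower, where 26.1% and 26.5% of all genes were. Of these 7 calls, SNAP23 was lost in 4 of the 6 fits that left out 1 library, SNAP47 in 3 and STX1A in 1. The counts for the same 10 were 4 and 1 with eIF4A2 (24.5% and 25.8% of all genes), and 6 and 1 with DDX6 (22.7% and 23.3%). Among the DDX6 calls SNAP23 and SNAP47 were each lost in 2 of 6 such fits. Of the 13 members of the endosomal, trans-Golgi and lysosomal routes, 2 were higher and 3 lower with eIF4A1, 2 and 4 with eIF4A2, and 3 and 2 with DDX6. The 12 ER and Golgi members gave 5 higher and 3 lower with eIF4A1, 5 and 5 with eIF4A2, and 5 and 3 with DDX6.

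**Figure D2:**
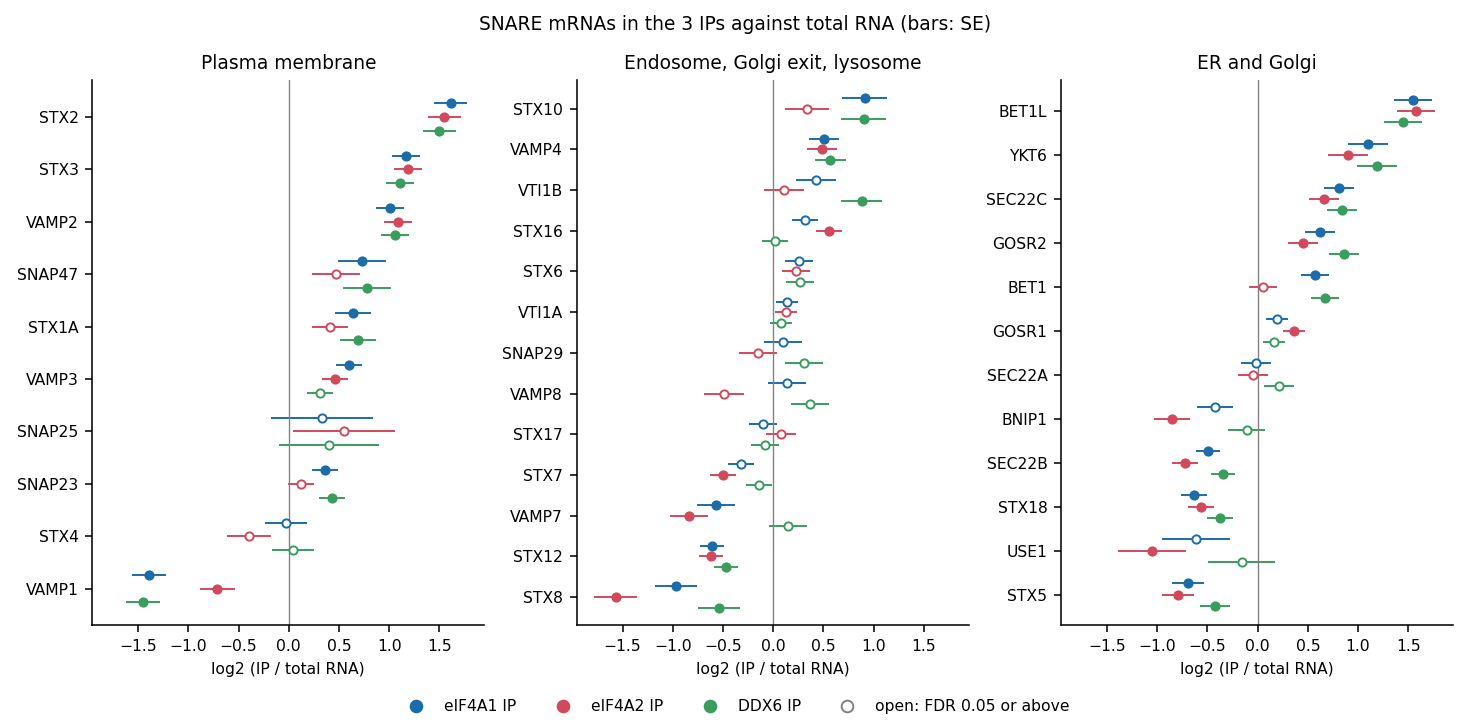
The log2 ratio of each IP to total RNA (x axes) for the 35 members tested, in 3 panels by transport route and ordered by the mean over the 3 IPs. Bars are standard errors, filled points have an FDR below 0.05, and open points do not. STX2 and BET1L lie near 1.5 in the 3 IPs, and STX8 lies at -1.57 with eIF4A2 but at -0.54 with DDX6.

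The 1 plasma membrane member that was lower was VAMP1, the other synaptobrevin. Its total RNA libraries held 17.8, 17.1 and 19.5 CPM. It fell to 7.38, 7.13 and 6.15 CPM with eIF4A1 and to 6.75, 6.7 and 6.46 CPM with DDX6 (log2 -1.39 ± 0.17, FDR 2.46e-05, and -1.45 ± 0.17, FDR 3.77e-05). With eIF4A2 it was at 9.9, 9.0 and 14.2 CPM (log2 -0.71 ± 0.17, FDR 0.00303), below every total RNA library as well. VAMP1 overlaps the exons of TAPBPL on the opposite strand, and the strand option of the counting was not given in the sources used here. VAMP1 and VAMP2, 2 close relatives, thus differed in sign in each IP.

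STX8, a Qc-SNARE of late endosomes, was at 20.3, 16.3 and 14.3 CPM in total RNA. It was at 7.4, 10.8 and 7.79 CPM with eIF4A1, at 6.27, 6.27 and 4.61 CPM with eIF4A2 and at 12.7, 13.1 and 9.09 CPM with DDX6, with no overlap between total RNA and any IP. The log2 ratios were -0.97 ± 0.21 (FDR 0.00172), -1.57 ± 0.21 (FDR 5.33e-05) and -0.54 ± 0.21 (FDR 0.0449), and the last of these was lost in 5 of the 6 fits that left out 1 library. Its usual partner STX7 was lower with eIF4A2 (log2 -0.5 ± 0.13, FDR 0.00712) and had an FDR of 0.0603 with eIF4A1, or 0.00965 with the replicate number as a block.

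Lower in the IPs were also 3 Qa syntaxins of inner membranes. STX5 went from 35.6, 35.8 and 26.5 CPM to 18.7, 22.9 and 19.2 CPM with eIF4A1, 17.4, 17.3 and 21.7 CPM with eIF4A2 and 24.3, 26.4 and 22.5 CPM with DDX6 (log2 -0.69 ± 0.16, -0.79 ± 0.16 and -0.42 ± 0.15). STX18 went from 35.4, 36.2 and 31.1 CPM to 19.5, 24.7 and 21.9 CPM with eIF4A1 (log2 -0.63 ± 0.13, FDR 0.0011), and its values with eIF4A2 and DDX6 were -0.56 ± 0.13 and -0.37 ± 0.13. STX12 went from 53.2, 61.2 and 59.0 CPM to 35.1, 36.8 and 41.8 CPM with eIF4A1 and to 42.1, 39.1 and 43.8 CPM with DDX6 (log2 -0.61 ± 0.12 and -0.47 ± 0.12). In each case the IP libraries lay below the total RNA libraries. For STX5 and STX18 the DDX6 call was lost in 5 of 6 fits that left out 1 library.

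STX18 works at the ER with the Qb-SNARE BNIP1 and the Qc-SNARE USE1, which receive vesicles returning from the Golgi. BNIP1 was at 17.9, 17.1 and 13.2 CPM in total RNA and at 9.33, 9.85 and 7.69 CPM with eIF4A2 (log2 -0.85 ± 0.18, FDR 0.00151). USE1 was at 17.7, 17.8 and 12.4 CPM in total RNA and at 8.25, 10.8 and 4.22 CPM with eIF4A2 (log2 -1.05 ± 0.34, FDR 0.0207), a call lost in 3 of 6 fits that left out 1 library. Both lay below every total RNA library. With eIF4A1 and DDX6 neither passed the test, at log2 values between -0.61 and -0.11. Same-numbered libraries of the IP experiment deviated together. The labels of 1 total RNA library give replicate 3 in the title and replicate 2 in the description, and the title was used. With the replicate number as a block both passed with eIF4A1 (BNIP1 -0.41 ± 0.12, FDR 0.00912, and USE1 -0.64 ± 0.17, FDR 0.00576).

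VAMP7 was at 80.8, 88.0 and 81.3 CPM in total RNA and fell to 42.5, 68.4 and 57.2 CPM with eIF4A1 (log2 -0.57 ± 0.19, FDR 0.0198) and to 41.7, 56.3 and 42.0 CPM with eIF4A2 (log2 -0.84 ± 0.19, FDR 0.00219). In the DDX6 IP it was at 79.5, 109 and 88.8 CPM, which overlapped total RNA (log2 0.15 ± 0.19). The gene lies in a region shared by X and Y, and how reads on the 2 copies were counted was not given in the sources used here. STX4, STX6, STX17, SNAP25, SNAP29, SEC22A, VTI1A and VAMP8 passed the test in no IP, with log2 values between -0.49 and 0.55. With the replicate block STX6 passed in each (log2 0.26, 0.23 and 0.27), STX4 was lower with eIF4A2 (-0.4 ± 0.09, FDR 0.00223), and VAMP8 was lower with eIF4A2 (-0.48 ± 0.14, FDR 0.0078) and higher with DDX6 (0.36 ± 0.13, FDR 0.029). The block also added STX16 and VTI1B to the members higher with eIF4A1, SNAP47, STX10 and STX1A to those higher with eIF4A2, and VAMP3 to those higher with DDX6. The calls over all genes rose with the block too. With eIF4A1 17 members were then higher and 10 lower, where 5667 and 5598 of 17474 genes were. The counts were 15 and 12 with eIF4A2 (5319 and 5582 genes), and 17 and 6 with DDX6 (5174 and 5313 genes).

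The IPs were then compared with each other. Between eIF4A2 and eIF4A1, the closely related helicases, edgeR called 0 of 35 members, with 6 at an unadjusted p below 0.05 and 2 called by DESeq2 (0.973% of all genes were higher and 0.0858% lower, 1.06% together). With the replicate block 1 member was higher and 6 lower with eIF4A2 (7.12% and 8.7% of all genes). The higher one was VAMP1 (log2 0.67 ± 0.15, FDR 0.0131 with the block). The lower ones were BET1 (log2 -0.52 ± 0.1), STX10 (-0.55 ± 0.1), STX8 (-0.61 ± 0.15), VAMP8 (-0.62 ± 0.13), BNIP1 (-0.43 ± 0.12) and STX4 (-0.36 ± 0.09). STX2 differed by -0.06 ± 0.16 on the log2 scale without the block (FDR 0.872).

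Between eIF4A2 and DDX6, 2 members were higher with eIF4A2 and 7 lower, where 9.82% and 11.3% of all genes were. With the replicate block the counts were 2 and 17 (18.5% and 22% of all genes). VAMP1 was higher with eIF4A2 (log2 0.73 ± 0.17, FDR 0.0105). STX16 was also higher, at 157, 155 and 158 CPM against 113, 106 and 102 CPM with DDX6 and 97.1, 102 and 119 CPM in total RNA (log2 0.55 ± 0.13 against DDX6, FDR 0.0119). The eIF4A2 libraries lay above the others for STX16, although a read-through gene, STX16-NPEPL1, shares its exons.

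On the lower side were SNAREs of late endosomes and of the ER. STX8 (log2 -1.03 ± 0.21, FDR 0.0064) and VAMP7 (-0.99 ± 0.19, FDR 0.00463) had the largest differences, and VTI1B, the Qb-SNARE that forms late endosomal complexes with STX7 and STX8, was lower as well (-0.77 ± 0.2, FDR 0.0184), a call lost in 3 of 6 fits that left out 1 library. VTI1B was at 71.8, 75.7 and 64.0 CPM in total RNA, at 68.5, 94.3 and 65.8 CPM with eIF4A2 and at 112, 163 and 114 CPM with DDX6, so that the DDX6 libraries lay above those of eIF4A2 and of total RNA. The eIF4A1 libraries, at 78.1, 118 and 88.1 CPM, overlapped those of DDX6. BNIP1 (-0.73 ± 0.18, FDR 0.0135) and BET1 (-0.61) were lower too, as was SEC22B (-0.37), whose call was lost in all 6 fits that left out 1 library. VAMP8, at 2.75, 2.76 and 2.27 CPM with eIF4A2 and 4.37, 5.73 and 3.92 CPM with DDX6, differed by -0.85. STX7, another component of the late endosomal complexes, was called with the block alone (log2 -0.36 ± 0.09, FDR 0.00925). STX2 differed by 0.05 ± 0.16 (FDR 0.855).

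Between DDX6 and eIF4A1 edgeR called 0 of 35 members, with 4 at an unadjusted p below 0.05 and 1 called by DESeq2, VAMP7 (0.0801% of all genes were higher by edgeR and 0.0114% lower, 0.0916% together). With the replicate block 2 members were higher with DDX6 and 0 lower (6.08% and 3.82% of all genes). These were VAMP7 (log2 0.73 ± 0.11, FDR 0.00623) and VTI1B (0.45 ± 0.11, FDR 0.0234). The value for STX2 was -0.11 ± 0.16.

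The gradient separates mRNAs in the polysomal pool, carrying several ribosomes, from those in the subpolysomal pool. After control siRNA 10 of 34 members were higher in polysomal than in subpolysomal RNA and 8 lower, where 30.5% and 33.5% of all genes were. Without the 2 libraries whose CNOT1 level went against their labels the counts were 11 and 8 (30.2% and 35.1% of all genes, 65.3% together), the same 18 members with SEC22B added. The SNAP proteins stood on the polysomal side, with SNAP23, SNAP29 and SNAP47 all higher, and none of the 5 Qb-SNAREs was higher.

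VAMP1 was the most subpolysomal member, at 66.3, 59.8, 57.7 and 74.7 CPM in the subpolysomal pool and 7.29, 6.41, 3.99 and 7.65 CPM in the polysomal pool. The log2 ratio was -3.35 ± 0.22 (FDR 2.26e-07), and -3.17 without the 2 libraries. Control input held 12.2, 13.3, 12 and 11.9 CPM of VAMP1. The subpolysomal libraries thus lay far above both input and polysomal libraries for this mRNA.

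VTI1B was at 253, 326, 209 and 219 CPM in the subpolysomal pool and 74.8, 81.2, 39.9 and 79.4 CPM in the polysomal pool (log2 -1.87 ± 0.23, FDR 1.95e-05, and -1.67 without the 2 libraries). STX16 was at 227, 221, 165 and 178 CPM against 74.3, 77.5, 51.3 and 80.0 CPM (log2 -1.48 ± 0.18, FDR 1.67e-05, and -1.34 without them). STX1A was at 13.8, 10.7, 21.7 and 22.9 CPM against 7.02, 6.45, 4.83 and 5.29 CPM (log2 -1.55 ± 0.26, FDR 0.000211, and -1.45 without them). For all 3 the pools did not overlap. BET1L, VAMP2, VAMP4 and GOSR2 were also lower in the polysomal pool, by log2 values of -1.04, -1.03, -0.87 and -0.8.

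On the other side STX6, a Qc-SNARE of the trans-Golgi network, was at 27.5, 26.9, 19.7 and 19.8 CPM in the subpolysomal pool and 50.1, 54.8, 71.3 and 46.9 CPM in the polysomal pool (log2 1.25 ± 0.19, FDR 8.84e-05, and 1.12 without the 2 libraries). STX5 was at 18.4, 19.2, 19.9 and 22.6 CPM against 42.4, 40.8, 63.6 and 37.9 CPM (log2 1.21 ± 0.19, FDR 0.000117, and 1.02 without them). SNAP29, which joins STX17 at the autophagosome, was at 23.8, 30, 20.7 and 23.6 CPM against 53.2, 58.7, 54.5 and 56.8 CPM (log2 1.19 ± 0.15, FDR 2.91e-05, and 1.21 without them). The pools of these 3 mRNAs did not overlap. SNAP47 gave a log2 value of 1.09 ± 0.18 (FDR 0.000175) and SNAP23 one of 1.03 ± 0.19 (FDR 0.000408), both also without overlap.

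STX2 overlapped between the pools of control cells, at 60.9, 64.0, 50.2 and 41.2 CPM in the subpolysomal pool and 47.3, 55.8, 23.0 and 53.7 CPM in the polysomal pool (log2 -0.27 ± 0.25, FDR 0.365). The 23.0 CPM belong to the library labelled control replicate 3, and without both such libraries the value was -0.04 ± 0.16 (FDR 0.849). Its plasma membrane relatives split, with STX4 higher in polysomal RNA (log2 0.77 ± 0.16), STX1A lower, and STX3 not called (0.15 ± 0.15).

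**Figure D3:**
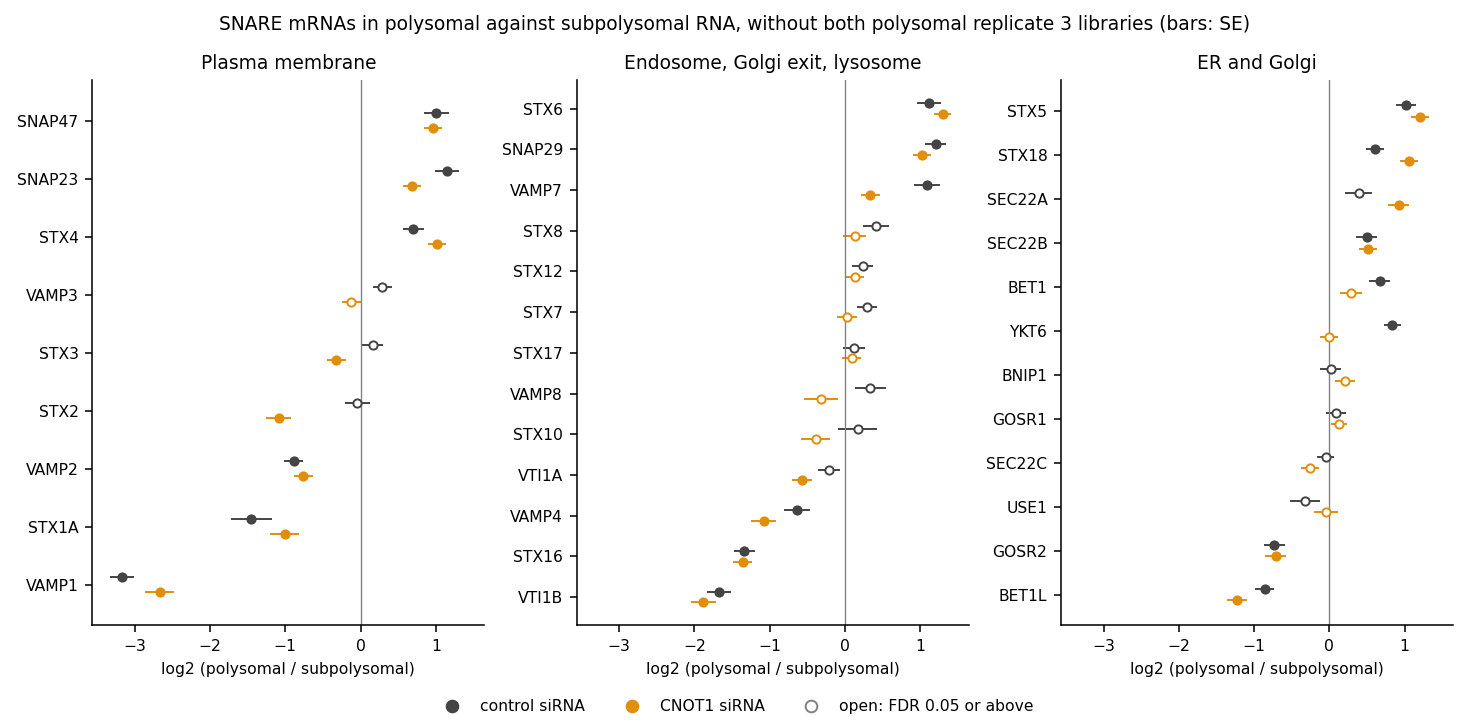
The log2 ratio of polysomal to subpolysomal RNA (x axes) for the 34 members tested, after control siRNA and after CNOT1 siRNA, without both polysomal replicate 3 libraries. Bars are standard errors and filled points have an FDR below 0.05. VAMP1 lies at -3.17 in control cells, and STX2 moves from -0.04 in control cells to -1.09 after CNOT1 siRNA.

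After CNOT1 siRNA 10 members were higher in the polysomal pool and 11 lower (32.7% and 33.2% of all genes, 65.9% together). The same 21 members were called without the 2 libraries (34.8% and 34.5% of all genes, 69.3% together). The leading members were again STX6 (log2 1.19 ± 0.14), STX5 (1.07 ± 0.16) and SNAP29 (1.01 ± 0.12) with STX18 (0.98 ± 0.14) on the polysomal side, and VAMP1 (-2.65 ± 0.18), VTI1B (-1.68 ± 0.2), STX16 (-1.25 ± 0.15) and BET1L (-1.17 ± 0.14) on the subpolysomal side. STX2 was lower in polysomal RNA here, by -0.83 ± 0.22 (FDR 0.00376), and by -1.09 ± 0.16 (FDR 3.66e-05) without the 2 libraries.

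The IP and the gradient experiments shared no libraries. Among the 11 members higher in the eIF4A2 IP, 5 were lower in control polysomal RNA (BET1L, GOSR2, STX16, VAMP2 and VAMP4), 1 was higher (YKT6) and 5 were not called (STX2, STX3, VAMP3, GOSR1 and SEC22C). Among the 10 lower in that IP, 3 were higher in polysomal RNA (STX5, STX18 and VAMP7), 1 was lower (VAMP1) and 6 were not called. Without the 2 libraries SEC22B passed from the last set to those higher in polysomal RNA, and no other member moved. The matching counts over all genes were not made. Spearman's rho between the 2 log2 ratios was -0.32 over 34 members and -0.45 over 12378 protein-coding genes, both without the 2 libraries. These are correlations across genes, which are not independent replicates. Across the 35 members tested in the IPs, the GC content of the 5′UTR went with the log2 ratio at rho 0.47 for eIF4A1, 0.35 for eIF4A2 and 0.54 for DDX6, against 0.24, 0.17 and 0.23 over 12737 genes. The density of the purine tetramers in the 5′UTR gave rho values of -0.11, -0.12 and -0.11 over the members, against -0.1, -0.06 and -0.11 over 12737 genes.

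**Figure D4:**
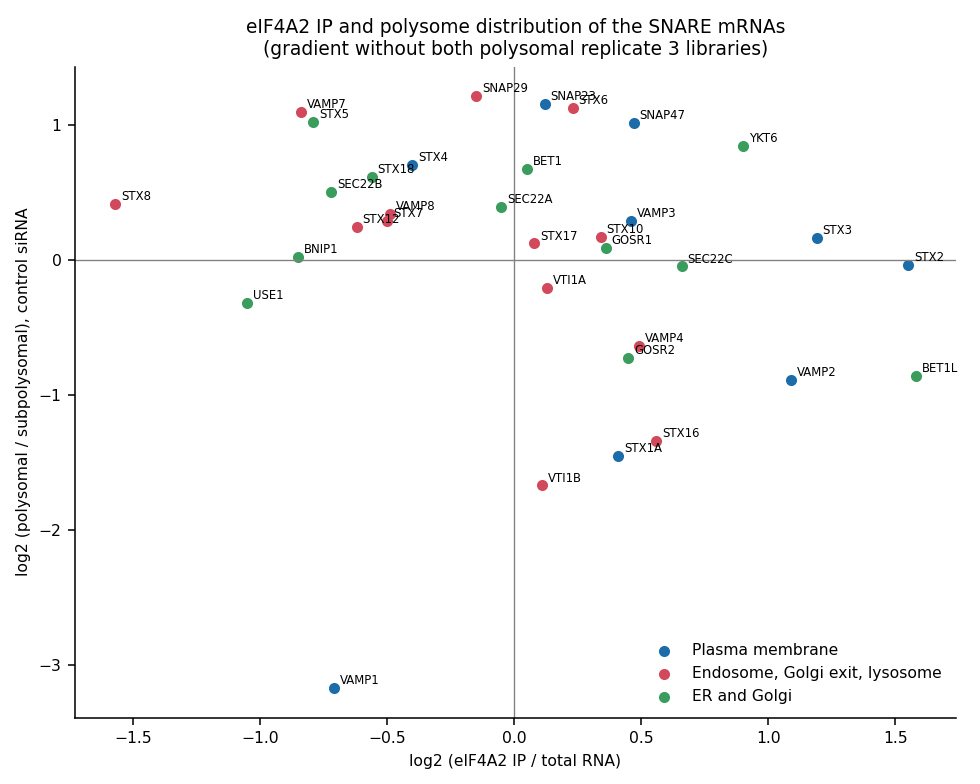
The log2 ratio of eIF4A2 IP to total RNA (x axis) against the log2 ratio of polysomal to subpolysomal RNA after control siRNA (y axis) for 34 members, coloured by route, without both polysomal replicate 3 libraries. VAMP2 and BET1L lie at the lower right, VAMP7 and STX5 at the upper left, STX2 at 1.55 and -0.04, and VAMP1 apart at -0.71 and -3.17.

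CNOT1 depletion addressed what the loss of the Ccr4-Not scaffold does to these mRNAs. In input RNA 6 of 34 members were higher and 18 lower after CNOT1 siRNA, where 28% and 29.6% of all genes were (57.5% together). The median log2 ratio was -0.26 over the members and -0.03 over all genes. Of the 10 tested members listed as R-SNAREs, among them SEC22A, SEC22B and SEC22C, none was higher and 8 were lower. All 24 calls were kept in the 8 fits that left out 1 library. In a fit of all 24 gradient libraries 2 were higher and 11 lower, where 2245 and 2614 of 16776 genes were. With the replicate block 7 were higher and 19 lower, where 5165 and 5442 of 16776 genes were. The block added SEC22A (log2 0.17 ± 0.06, FDR 0.0349) and STX7 (-0.12 ± 0.04, FDR 0.0231).

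The largest decrease was that of VAMP4, from 13.5, 15.1, 15.9 and 14.7 CPM to 8.29, 8.05, 7.71 and 7.58 CPM (log2 -0.9 ± 0.08, FDR 1.87e-07). VTI1B went from 91.9, 91.9, 82.0 and 92.5 CPM to 57.8, 57.7, 48.6 and 58.5 CPM (log2 -0.69 ± 0.07, FDR 4.13e-07). Its relative VTI1A, of the trans-Golgi network, went from 37.5, 39.4, 36.7 and 38.9 CPM to 25.1, 28.5, 23.4 and 24.5 CPM (log2 -0.59 ± 0.07, FDR 2.65e-06). The groups of these 3 mRNAs were well apart, and VAMP4, VTI1A, STX16 and STX6 are known to form 1 complex at the trans-Golgi network, of which STX16 was lower too (log2 -0.44 ± 0.05) and STX6 higher (0.34 ± 0.07, FDR 0.00057).

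STX2 fell from 46.1, 52.0, 47.2 and 47.4 CPM in control input to 31.2, 35.7, 28.6 and 30.5 CPM after CNOT1 siRNA (log2 -0.61 ± 0.07, FDR 2.44e-06), with no overlap. Besides VAMP4, the members listed as R-SNAREs that fell were VAMP1 (-0.55 ± 0.08), SEC22C (-0.5 ± 0.06), VAMP2 (-0.48 ± 0.07), YKT6 (-0.35 ± 0.07), SEC22B (-0.35 ± 0.05), VAMP7 (-0.31 ± 0.05) and VAMP3 (-0.3 ± 0.06). Of these, YKT6, VAMP7 and VAMP3 did not pass in the fit of all 24 gradient libraries.

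The members that rose were fewer. SNAP47 went from 50.7, 52.8, 51.2 and 46.8 CPM to 78.0, 85.1, 70.1 and 74.5 CPM (log2 0.61 ± 0.06, FDR 9.81e-07). STX5 went from 30.8, 31.0, 30.8 and 25.7 CPM to 41.5, 43.7, 48.3 and 43.4 CPM (log2 0.58 ± 0.07, FDR 5.19e-06). STX4 (0.32 ± 0.06, FDR 0.00044), STX6, STX12 (0.29 ± 0.06) and GOSR1 (0.19 ± 0.05) also rose. In none of the 6 did the groups overlap, and the matching share over all genes was not counted. With all 24 gradient libraries in the fit, 4 of the 6 (STX4, STX6, STX12 and GOSR1) no longer passed the test. SNAP47 overlaps JMJD4 on the opposite strand. The same limit as for VAMP1 also holds for STX3 (OR10V1), STX18 (NSG1 and STX18-AS1), SNAP23 (LRRC57) and SNAP29 (PI4KA). It holds as well for YKT6 (CAMK2B), SEC22C (NKTR and SS18L2), VTI1A (ZDHHC6) and VTI1B (ARG2).

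Across the 34 members the input ratio and the polysomal to subpolysomal ratio of control cells, measured in different libraries, went together at a Spearman's rho of 0.62, or 0.53 without the 2 libraries. Over 12422 protein-coding genes the values were 0.23 and 0.09. The libraries differed, but input was an aliquot of the lysates that were fractionated, so the 2 ratios are not independent measurements. Genes are not independent replicates here either. Of the 10 members higher in control polysomal RNA, 4 rose in input (SNAP47, STX4, STX5 and STX6) and 4 fell (SNAP23, VAMP7, YKT6 and BET1). Of the 8 lower there, 7 fell in input and 0 rose. The matching counts over all genes were not made, so these are a description of the members only.

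**Figure D5:**
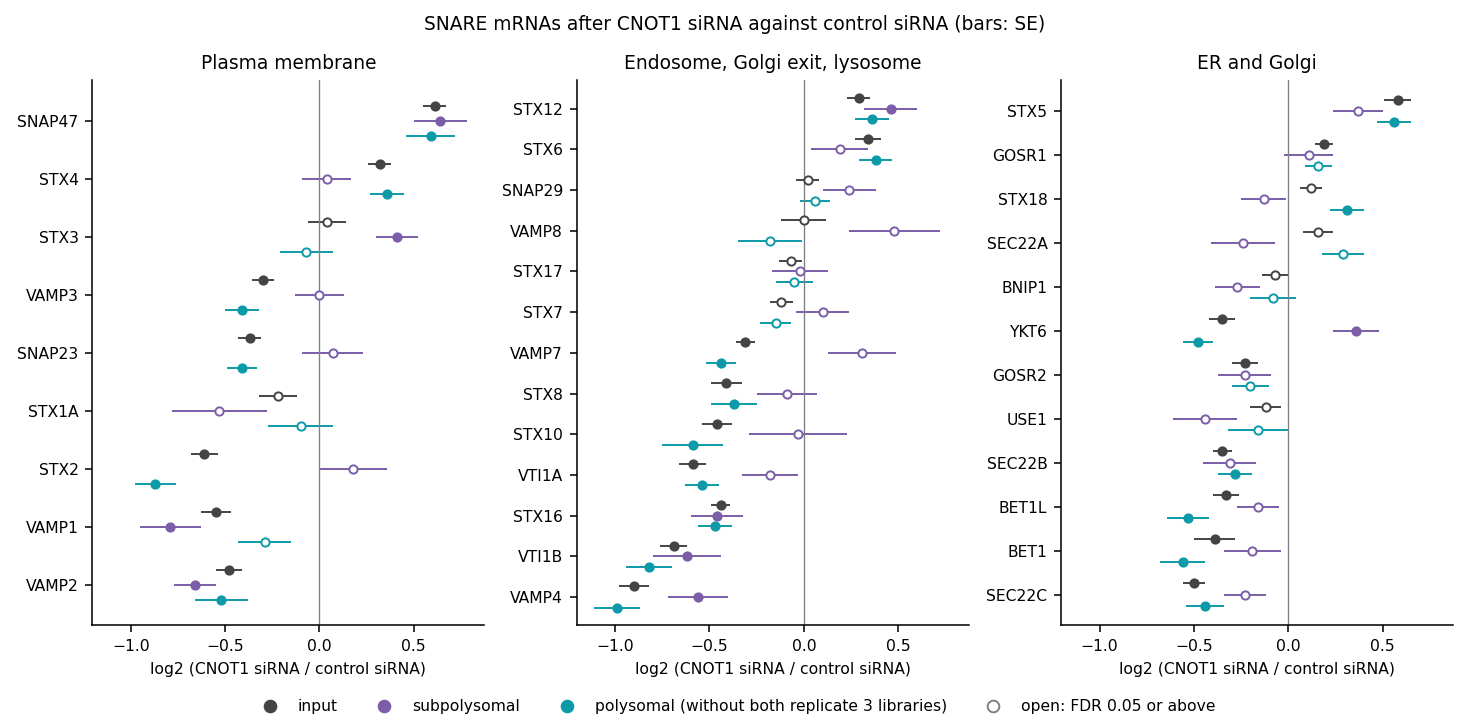
The log2 ratio of CNOT1 siRNA to control siRNA (x axes) in input, subpolysomal and polysomal RNA for the 34 members tested, the polysomal values without both replicate 3 libraries. Bars are standard errors and filled points have an FDR below 0.05. STX2 lies at -0.61 in input, 0.18 in subpolysomal and -0.87 in polysomal RNA, and SNAP47 lies between 0.59 and 0.64 in all 3.

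In the subpolysomal pool 4 members were higher after CNOT1 siRNA and 5 lower (10.4% and 15.2% of all genes). Same-numbered subpolysomal libraries deviated together, and with the replicate block 8 were higher and 13 lower (24.3% and 32.6% of all genes), among them STX5 (log2 0.37 ± 0.08, FDR 0.000722) and VAMP7 (0.32 ± 0.07, FDR 0.00052). SNAP47 rose here too, from 28.9, 31.2, 40.2 and 36.5 CPM to 50.4, 51.0, 63.2 and 48.0 CPM (log2 0.64 ± 0.14, FDR 0.00844). STX3 went from 43.1, 39.4, 34.9 and 37.7 CPM to 49.7, 53.7, 52.5 and 50.9 CPM (0.41 ± 0.11, FDR 0.0197). These 2 did not overlap between groups. STX12 (0.46 ± 0.14, FDR 0.0362) and YKT6 (0.36 ± 0.12, FDR 0.04) passed the test as well, but their calls were lost in 6 and 7 of the 8 fits that left out 1 library.

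VAMP1 fell from 66.3, 59.8, 57.7 and 74.7 CPM to 46.4, 37.5, 27.1 and 38.4 CPM (log2 -0.79 ± 0.16, FDR 0.00589) and VAMP2 from 54.6, 57.6, 50.2 and 58.0 CPM to 35.0, 33.6, 34.7 and 36.5 CPM (log2 -0.66 ± 0.11, FDR 0.00216), so that both synaptobrevins were lower without overlap. VTI1B (-0.62 ± 0.18, FDR 0.0294), VAMP4 (-0.56 ± 0.16, FDR 0.0277) and STX16 (-0.46 ± 0.14, FDR 0.0383) were lower, and these calls were lost in 4, 5 and 6 of the 8 fits. STX2 was at 60.9, 64.0, 50.2 and 41.2 CPM and at 60.1, 80.6, 50.4 and 54.2 CPM, 2 overlapping sets (log2 0.18 ± 0.18, FDR 0.482, and FDR 0.0603 with the block).

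In the polysomal pool as labelled edgeR called 0 of 34 members and 0 of 16773 genes (0%), while 0 members and 181 genes had a raw p under 0.05 and the DESeq2 count was 0. Without the 2 libraries, which leaves 3 against 3, 6 members were higher and 16 lower (18.8% and 15.5% of all genes). VAMP4 fell from 14.3, 13.6 and 13.9 CPM to 6.58, 6.81 and 7.63 CPM (log2 -0.99 ± 0.12, FDR 0.000306), whereas the libraries labelled replicate 3 held 6.2 CPM (control) and 13.2 CPM (CNOT1 siRNA). STX2 fell from 47.3, 55.8 and 53.7 CPM to 25.5, 29.5 and 30.7 CPM (log2 -0.87 ± 0.11, FDR 0.000289), with 23.0 and 52.1 CPM in the libraries labelled replicate 3. In both genes those 2 libraries took the level of the opposite group.

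VTI1B (-0.82 ± 0.12, FDR 0.000558) and STX10 (-0.59 ± 0.16, FDR 0.0174) fell as well, and SNAP47 (0.59 ± 0.13, FDR 0.00672), STX5 (0.56 ± 0.09, FDR 0.00127), STX6 (0.38 ± 0.09, FDR 0.00805) and STX4 (0.36 ± 0.09, FDR 0.0133) rose. Of the 6 members higher in input and the 6 higher in polysomal RNA, 5 were on both lists. Of the 18 lower in input, 16 were lower in polysomal RNA, which were all 16 of the second list. Input RNA was taken from an aliquot of the lysates that were fractionated. The same overlap over all genes was not counted, so it cannot be read as a trait of the SNAREs.

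For STX2, YKT6 and VAMP7 the CNOT1 effect differed between the pools when the 2 libraries were left out. The difference of the effects, polysomal minus subpolysomal, was -1.05 ± 0.24 for STX2 (FDR 0.0134), -0.85 ± 0.15 for YKT6 (FDR 0.00364) and -0.75 ± 0.23 for VAMP7 (FDR 0.0481), and 0 members differed in the other direction (3.83% of all genes lower and 5.18% higher). With the replicate block and without the 2 libraries the same 3 were lower and 2 were higher (STX18 and VAMP1), where 1225 and 1617 of 17115 genes were. Same-numbered libraries of the pools did not consistently deviate together. With all libraries as labelled they correlated at -0.44 to 0.185 in control and at -0.233 to -0.118 after CNOT1 siRNA, so pairing does not back this block. YKT6 rose in the subpolysomal pool from 124, 127, 116 and 131 CPM to 154, 182, 138 and 165 CPM and fell in the polysomal pool from 221, 228 and 211 CPM to 147, 162 and 162 CPM, with no overlap in either. VAMP7 was at 54.6, 79.4, 47.3 and 52.7 CPM and 68.5, 91.7, 65.5 and 64.2 CPM in the subpolysomal pool, which overlapped, and fell from 116, 127 and 126 CPM to 87.6, 89.4 and 95.8 CPM in the polysomal pool, which did not. All 3 mRNAs fell in input. With all libraries as labelled edgeR called 0 of 34 members for this difference (0.548% of all genes higher and 0.37% lower, 0.918% together), with 4 at an unadjusted p below 0.05 and 0 called by DESeq2, and STX2 was at -0.56 ± 0.36 (FDR 0.481).

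TNRC6A and TNRC6B depletion addressed the link from microRNAs to the same complex. edgeR called 0 of 34 members and 0 of 14064 genes (0%), with 1 member and 289 genes at an unadjusted p below 0.05. DESeq2 called 0 members, 6 genes higher and 2 lower. TNRC6A and TNRC6B themselves had an FDR of 1 at log2 ratios of -1.8 and -1.68. STX2 was at 49.8 and 49.3 CPM in control cells and at 55.4 and 49.9 CPM after the siRNAs (log2 0.09 ± 0.21). STX6 was at 44 and 41.6 CPM against 72.3 and 60.1 CPM (log2 0.63 ± 0.22), the 1 member under an unadjusted p of 0.05, and SNAP23 at 44.7 and 67.1 CPM against 25.7 and 41.9 CPM (log2 -0.72). Neither STX6 nor SNAP23 overlapped between groups. With 2 libraries in each group a lack of overlap carries little weight, and its share over all genes was not counted.

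Lists of other genes of the fusion machinery were read beside the SNAREs. Of 32 tethers, 1 was higher and 23 lower in the eIF4A1 IP (26.1% and 26.5% of all genes), 3 and 20 in the eIF4A2 IP (24.5% and 25.8%), and 1 and 22 in the DDX6 IP (22.7% and 23.3%), with medians of -0.6, -0.49 and -0.7 where those of the SNAREs were 0.26, 0.12 and 0.31. Examples with eIF4A1 are COG1 of the Golgi tether (log2 -1.03 ± 0.11, FDR 9.61e-06), EXOC4 of the exocyst (-1.39 ± 0.15, FDR 8.04e-06) and the early endosome tether EEA1 (-2.22 ± 0.31, FDR 6.84e-05). The 1 tether that was higher there was VPS54 of GARP (0.79 ± 0.14, FDR 0.000347). Of 21 regulators tested out of 22, 2 were higher and 9 lower with eIF4A1, 2 and 9 with eIF4A2, and 1 and 7 with DDX6. NSF itself was lower in each (log2 -0.97 ± 0.15, -1.11 ± 0.15 and -0.78 ± 0.15).

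In control cells 17 tethers were higher in polysomal RNA and 4 lower (30.5% and 33.5% of all genes), with a median log2 ratio of 0.53 against 0.14 for the SNAREs, and 9 regulators were higher and 5 lower (median 0.31). Without both polysomal replicate 3 libraries, 16 tethers were higher and 5 lower (30.2% and 35.1% of all genes), with a median of 0.41 against 0.21 for the SNAREs. In that fit 8 regulators were higher and 5 lower (median 0.04). NSF was among those higher (log2 1.27 ± 0.16, FDR 2.21e-05). After CNOT1 siRNA 11 tethers were higher in input and 8 lower (median 0.07; 28% and 29.6% of all genes), and 4 regulators were higher and 10 lower (median -0.16). Among the latter the SNAP adaptors of NSF all fell, NAPA by 0.46, NAPB by 0.96 and NAPG by 0.42 on the log2 scale.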

How the data were processed

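RNA-Seq counts per gene were deposited for 40 libraries. The authors aligned stranded TruSeq reads to hg19 with TopHat2 after bcl2fastq 2.0 and counted them with HTSeq. The strand option and annotation are not given in the sources used here. The deposited series table was not used. The groups, 36 members, lists and tests were chosen with earlier results of these data known.

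Counts were scaled by TMM and tested with edgeR 4.0.16 (R 4.3.3; quasi-likelihood, Benjamini-Hochberg FDR below 0.05 over all genes kept by filterByExpr). The RIP fit used 12 libraries, each gradient comparison 8 (16 for the interaction) with filter and factors from all 24, and the TNRC6 fit 4. CPM used the TMM-scaled total. RPKM and windows used GENCODE 44 on GRCh37. The scripts were tested on simulated data. Same-numbered libraries correlated at 0.184 to 0.782 in the RIP experiment, 0.195 to 0.358 in input and 0.586 to 0.736 in the subpolysomal pool. Calls changed by the block are therefore given by name or by count, with values for some of the members. In the polysomal pool as labelled they correlated at -0.562 to 0.102, and between control pools at -0.44 to 0.185. Between the pools after CNOT1 siRNA the range was -0.233 to -0.118. Block fits with polysomal libraries thus lack backing from pairing. Other settings tried were RLE factors, DESeq2 1.42.0, a fit without the filter, other sets of libraries and leaving out each library. Full values were given for STX2 and, per comparison, for up to 4 increases and 4 decreases among called members with a mean of at least 5 CPM in 1 group. Other members got values where relatives or partners were compared, and the tethers and regulators named as examples were chosen after their values were seen.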

Additional observations from a re-analysis of the deposited data

Results flagged for a closer look

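A search for libraries far from the others of their group covered 126 sets of 4 values and marked 14, where chance marks about 1 in 20. Of these, 5 were the polysomal replicate 3 libraries whose CNOT1 level went against their labels. In the one labelled control, VAMP4 was at 6.2 CPM (others 13.6 to 14.3), YKT6 at 123 CPM (211 to 228) and VTI1B at 39.9 CPM (74.8 to 81.2). In the one labelled CNOT1 siRNA, VAMP4 was at 13.2 CPM (6.58 to 7.63) and SNAP23 at 87.4 CPM (62.6 to 66.0).

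In input the marked values were smaller departures. In control replicate 4, STX5 was at 25.7 CPM (others 30.8 to 31.0), STX10 at 20.8 CPM (24.8 to 25.3) and VAMP7 at 101 CPM (92.0 to 92.8). In control replicate 3, VTI1B was at 82.0 CPM (91.9 to 92.5). In CNOT1 siRNA replicate 3, VTI1B was at 48.6 CPM (57.7 to 58.5), YKT6 at 109 CPM (132 to 134) and STX12 at 68.9 CPM (58.3 to 59.4), and in replicate 4 STX6 was at 51.0 CPM (57.7 to 58.9). In subpolysomal RNA, VAMP7 was at 91.7 CPM in CNOT1 siRNA replicate 2 (64.2 to 68.5).

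Without the polysomal replicate 3 libraries the CNOT1 siRNA effect differed between polysomal and subpolysomal RNA for STX2 (-1.05), YKT6 (-0.85) and VAMP7 (-0.75 on the log2 scale), by the interaction test in edgeR.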

How the results depend on the processing

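Among the members given in full, 848 of the values under alternative settings kept their direction and side of the threshold, 44 kept only the direction, 4 newly passed and 4 changed sign. The sign changes were all STX2 between IPs, where it was not called. With 1 library left out, the eIF4A2 value of STX2 lay between -0.19 and 0.06 against eIF4A1 and between -0.08 and 0.17 against DDX6. Against eIF4A1 the eIF4A2 value was 0.01 without eIF4A1 IP replicate 2 and 0.06 without eIF4A2 IP replicate 1, and against DDX6 it was -0.08 without eIF4A2 IP replicate 2 and -0.05 without DDX6 IP replicate 1. The causes of these and the following moves were not tested.

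For counts of members called, eIF4A2 against eIF4A1 gave 2 with DESeq2, 2 without the filter and 7 with the replicate block. DDX6 against eIF4A1 gave 1, 1 and 2. The block gave 19 for eIF4A2 against DDX6, 21 for CNOT1 siRNA in subpolysomal RNA and 2 for TNRC6A/B siRNA (STX6 higher, SNAP23 lower), whose 2 pairs are too few to establish pairing. It took no called member away except in polysomal against subpolysomal RNA after CNOT1 siRNA, where VTI1A was lost, or STX3 and VAMP7 when both polysomal replicate 3 libraries were also left out. The fit of all 24 gradient libraries gave 13 for CNOT1 siRNA in input. Without both polysomal replicate 3 libraries the polysomal count was 22, and 23 with the replicate block. The interaction count was then 3, and 5 with the block (2 higher, 3 lower). Leaving out 1 library gave 5 to 10 members for eIF4A2 against DDX6, lowest without DDX6 IP replicate 2 (5), 4 to 8 for CNOT1 siRNA in subpolysomal RNA, lowest without control replicate 1 or CNOT1 siRNA replicate 4 (4 each), and 0 to 1 for the interaction, where YKT6 passed without control polysomal replicate 3. The split of all genes into higher and lower moved with scaling for CNOT1 siRNA in subpolysomal RNA (1738 and 2547, with DESeq2 2372 and 2306), for the interaction (92 and 62, with RLE 41 and 56, with DESeq2 272 and 307), for eIF4A2 against eIF4A1 (170 and 15, with DESeq2 541 and 159) and for DDX6 against eIF4A1 (14 and 2, with DESeq2 359 and 182).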
